A study of Homo sapiens with 2 samples.

Results

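The ATF4 and ER stress genes are 10 genes chosen by name: ATF4, DDIT3, TRIB3, CHAC1, DDIT4, ASNS, PSAT1, XBP1, HSPA5 and HERPUD1. They were found on the array by the RefSeq transcript accession of each non-control probe, and the rule itself uses no measured value. All 10 genes were measured, among 11994 measured genes and 21614 genes with a named probe.

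HCT116, an established human colon cancer cell line, was transfected with a pEB expression vector and kept in blasticidin selection medium for 2 weeks. The mock cells are the control by title and genotype label, although the treatment text of both samples describes the HOXA5 short vector, and the HOXA5 short cells overexpress HOXA5 short RNA, a non-coding transcript from the HOXA6-HOXA5 locus. All the cells were therefore transfected and drug-selected, and the labels do not say whether either population was 1 clone or a mixture. Total RNA from each was labelled with the dye Cy3 and hybridised to 1 single-colour Agilent array, so no test of the difference is possible, and the errors below are those of the measurement alone.

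ATF4 is a transcription factor of the integrated stress response. When one of the eIF2 kinases phosphorylates the translation factor eIF2, general protein synthesis falls while the ATF4 message is translated more, and ATF4 protein then turns on genes for amino acid supply and for stress-induced death. The endoplasmic reticulum (ER) joins this response through the kinase PERK, the product of EIF2AK3, and has further sensors of its own: IRE1 splices the XBP1 message, and ATF6 is cut by proteases to release a transcription factor that switches on chaperones and degradation factors. An expression array reads the amount of message and sees neither the translation of ATF4 nor the phosphorylation of eIF2, and whether the XBP1 probe reads the spliced or the unspliced message was not determined here.

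Genes of these pathways are commonly recognised by short promoter elements, and the stretches that hold such letters are printed to show which members carry which element. RefSeq promoter windows on GRCh38.p14, running from 250 bases before to 50 bases after a transcript start, were available for all 10 genes (16 windows, since some genes have several starts). Both strands were searched for 4 motifs. These were TGATGNAA, the core of the ATF4 composite site, the ER stress element (CCAAT, 9 free bases, CCACG), the ER stress element II (ATTGG, 1 free base, CCACG) and TGACGTGG, a site of XBP1 and ATF6. The CCACG of both ER stress elements, read on the opposite strand, is also the end of TGACGTGG. The ATF4 composite letters lay in the windows of ASNS, CHAC1 and HERPUD1, against 4.46% of the 27305 genes with a window. The ER stress element lay in the windows of HSPA5 and XBP1 (0.0916% of genes), and the ER stress element II in that of HERPUD1 (0.0696% of genes). No member window held TGACGTGG (0.927% of genes). The windows of ATF4, DDIT3, TRIB3, DDIT4 and PSAT1 held none of the 4, which says only that these letters were not in these windows. A match of letters is a description and not a bound site.

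In the sequences, given 5′ to 3′ along the gene's strand, capitals mark the motif, with 20 flanking bases on each side. For ASNS (chr7:97872449-97872496, minus strand) the composite site lay 61 to 68 bases upstream of the start. For CHAC1 (chr15:40953242-40953289, plus strand) it lay 202 to 209 bases upstream and reads on the opposite strand.
ASNS: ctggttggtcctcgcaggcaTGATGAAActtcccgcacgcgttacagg
CHAC1: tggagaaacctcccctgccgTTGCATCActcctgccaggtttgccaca
For HSPA5 (chr9:125241371-125241429, minus strand) the ER stress element lay 48 to 66 bases upstream, and for XBP1 (chr22:28800583-28800641, minus strand) 34 to 52 bases upstream.
HSPA5: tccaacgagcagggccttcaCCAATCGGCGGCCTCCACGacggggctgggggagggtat
XBP1: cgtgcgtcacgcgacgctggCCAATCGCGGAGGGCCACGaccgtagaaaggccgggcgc
HERPUD1 (chr16:56931946-56932055, plus strand) holds both kinds, the ATF4 composite letters on the opposite strand 169 to 176 bases upstream and the ER stress element II 107 to 117 bases upstream.
HERPUD1: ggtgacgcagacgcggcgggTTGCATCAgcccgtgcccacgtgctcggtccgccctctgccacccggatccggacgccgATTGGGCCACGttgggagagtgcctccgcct

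The values are the scanner's processed signal, a background-subtracted brightness in arbitrary units. The HOXA5 short array was brighter as a whole: its 75th percentile over non-control probes was 44.0, against 35.6 on the mock array, a ratio of 1.23. Signals are printed unscaled, while every difference is log2 HOXA5 short minus mock after each array was divided by its own 75th percentile, so a probe with a raw ratio of 1.23 has a difference of about 0. Of 50599 probes, 17938 were well above background on both arrays, and no spot was saturated. HOXA5, the gene from whose locus the transfected RNA comes, read 39.4 in mock and 346 in HOXA5 short cells, a difference of 2.83. Whether its probe reads the transfected RNA, the coding HOXA5 message or both was not determined. By qPCR the study reported the coding message unchanged in the overexpressing cells. Of 7 epithelial markers, 6 were measured on both arrays (KRT8, KRT18, KRT19, CDH1, CLDN7 and EPCAM, with differences between -0.05 and 0.18) and VIL1 was not. Of the markers of other cell types, PTPRC, PECAM1 and DCN did not stand well above background on any array, and COL1A1 read 16.7 and 22.6.

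Across the 10 genes the arrays were nearly alike. The differences ran from -0.18 for HERPUD1 to 0.23 for PSAT1, with a median of -0.05 and an SD among the genes of 0.12. Over all 11994 measured genes the median was -0.02, the SD 0.29 and the central 95% ran from -0.52 to 0.62. All genes include dimmer ones, and the comparison was not matched for brightness. None of the 10 genes reached 1.5-fold in either direction, which 4.38% of all genes did, and none reached 2-fold, which 0.900% did. Counting only signals above the median, which keeps all 10 members, 2.51% of 6769 genes reached 1.5-fold. At this background a count of 0 among 10 genes is no result about the members.

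By direction 3 members were higher and 7 lower, where 45.4% of all measured genes were higher. The member split turned with the scaling. It was 7 higher and 3 lower when the arrays were centred on their medians, and 10 higher when they were centred on the RNA spike-ins. These scalings add 1 constant to all genes, so the distance of the member median to that of all genes, 0.03 below it, cannot change under them. Other settings can change it, and the member median then lay on either side of that of all genes. It was above by 0.05 with normexp, 0.05 with no filter and 0.02 with the local median subtracted. Relative to all genes it stayed at -0.05 with quantile normalization and -0.04 with the deposited values. With signals above the median, the brightest probe and no uneven areas it was -0.03 each. The 12 probes of the 10 genes were set against the SD of single spots, taken from probes printed in several spots, passing or not. It was 0.12 for signals above 1000, 0.17 from 200 to 1000, 0.19 from 50 to 200, 0.29 from 15 to 50 and 0.58 from 5 to 15 (0.48 over the 21 of 50 such probes that passed). Differences of 9 of the 12 probes were smaller than this SD. The exceptions were the brighter CHAC1 probe, the dimmer PSAT1 probe and the HERPUD1 probe. The 9 include DDIT4 and XBP1, each a mean of 10 spots, for which the SD of 1 spot is too wide. Their standard error over copies was 0.03.

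**Figure D1:**
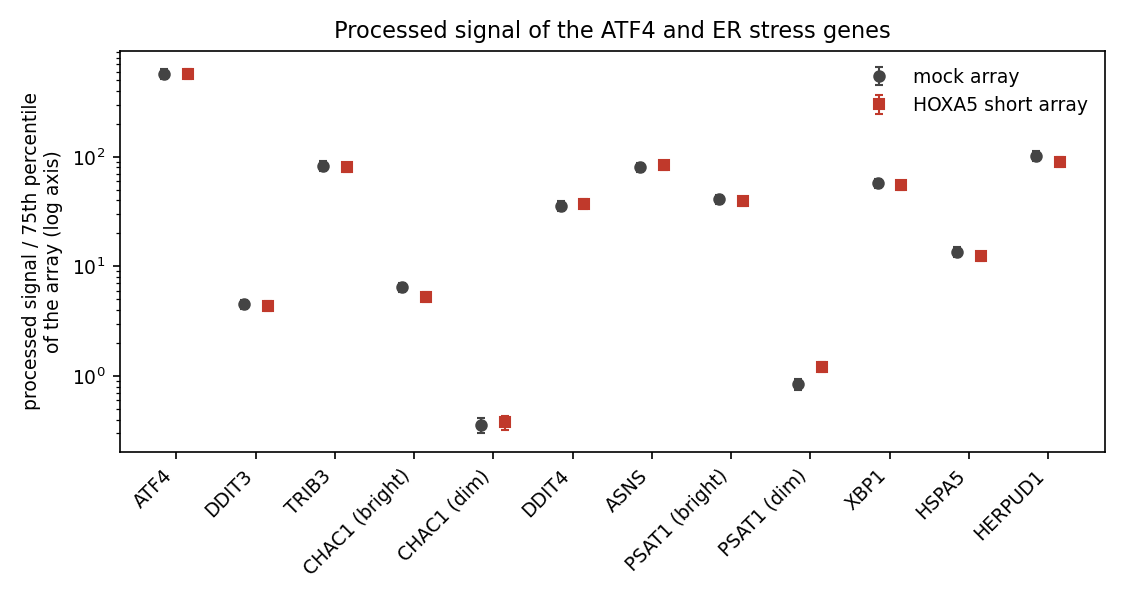
Processed signal divided by the 75th percentile of its array (log axis) for the 12 probes of the 10 genes, mock as circles and HOXA5 short as squares. Bars are the scanner software's own error, and levels of different probes are not comparable with each other. The pairs lie close together at every probe; the widest separations are those of the brighter CHAC1 probe and the dimmer PSAT1 probe.

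ATF4, the regulator of the group, had a single probe (NM_001675) that read 20546 ± 2055 (scanner error, as for the single-spot signals that follow) in mock and 25161 ± 2516 in HOXA5 short. The difference was -0.01, with a propagated scanner error of 0.20, and 95% of all measured genes lay at least as far from 0. This is the smallest difference of the 10 genes, and it is far inside the single-spot SD of 0.12. Of 32 well-measured spots near it, 0 differed 2-fold.

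DDIT3 encodes CHOP, a transcription factor that ATF4 and ER stress induce and that promotes death under lasting stress. Its probe (NM_004083) read 161 ± 16.2 in mock and 191 ± 19.3 in HOXA5 short, a difference of -0.05. TRIB3, a pseudokinase induced by ATF4 and CHOP that feeds back on ATF4, read 2962 ± 296 and 3533 ± 353 (NM_021158), also a difference of -0.05. For both genes the difference was smaller than the single-spot SD at their signal, and 77.9% and 79.0% of all genes lay at least as far from 0.

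CHAC1 breaks down glutathione and is a target of ATF4. Its pair of probes, both designed on NM_024111, did not give the same value. The brighter probe read 230 ± 23.1 in mock and 233 ± 23.4 in HOXA5 short, a difference of -0.28 against a single-spot SD of 0.17. The dimmer probe read 12.8 ± 2.07 and 16.7 ± 2.47, a difference of 0.08 against an SD of 0.58 at that low signal. Their mean was -0.10, and it is -0.28 if the brighter probe stands alone. The dimmer probe is too close to background to tell these apart. No well-measured spot near either probe differed 2-fold (29 near the brighter and 28 near the dimmer).

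DDIT4, also called REDD1, restrains the growth kinase mTORC1 under stress. Its probe (NM_019058) was printed in 10 spots, which gives its measurement error directly. In mock the 10 spots read from 1171 to 1402 with a median of 1289, and in HOXA5 short from 1529 to 1749 with a median of 1639. Divided by the 75th percentile of each array these become 32.9 to 39.3 and 34.8 to 39.7, so the spots of the arrays overlapped. The mean difference over spots printed at the same place was 0.05 ± 0.09 (SD, 10 spots; technical copies of 1 RNA sample each), from -0.07 to 0.23, with 6 spots higher and 4 lower. The spot at 0.23 was the only copy in an uneven area of the array, where 2 of 16 surrounding spots differed 2-fold, and without it the mean was 0.03.

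ASNS and PSAT1 stand for the amino acid arm. ASNS makes asparagine, and its probe (NM_001673) read 2876 ± 288 in mock and 3699 ± 370 in HOXA5 short, a difference of 0.06. PSAT1 catalyses a step of serine synthesis and had a bright and a dim probe, both on NM_058179. The bright one read 1468 ± 147 and 1728 ± 173, a difference of -0.07. The dim one read 30.1 ± 3.56 and 53.7 ± 5.74, a difference of 0.53 (1.44-fold) against a single-spot SD of 0.29. Their mean of 0.23 (1.17-fold) was the highest of the 10 genes, and 28.2% of all genes lay at least as far from 0. It rested on the dim probe, since the bright probe alone gave -0.07. None of the 42 spots around the dim probe differed 2-fold, and why the probes differ was not tested.

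XBP1, the transcription factor made active by IRE1 splicing, was also printed in 10 spots (NM_005080). The mock spots ran from 1889 to 2227 with a median of 2048 and the HOXA5 short spots from 2113 to 2656 with a median of 2418. After scaling they became 53.0 to 62.5 and 48.0 to 60.4, and again overlapped. The mean difference was -0.06 ± 0.10 (SD, 10 spots), from -0.22 to 0.11, with 3 spots higher and 7 lower. For DDIT4 and XBP1 alike the mean was smaller than the SD between copies, and its standard error over the 10 copies was 0.03, which covers the array and not the culture of the cells.

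**Figure D2:**
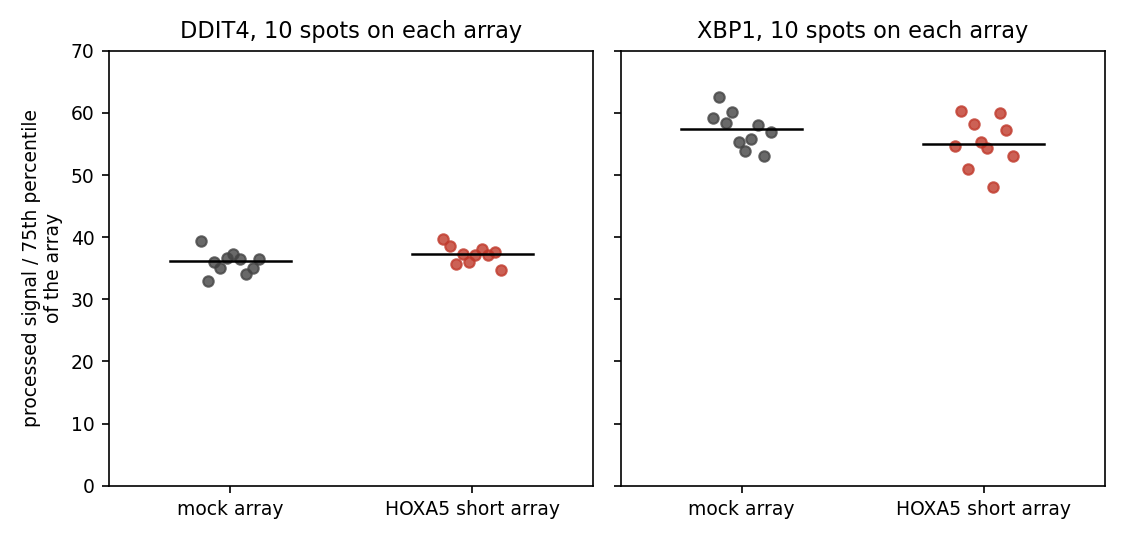
Processed signal divided by the 75th percentile of its array for each of the 10 spots of the DDIT4 and XBP1 probes. Lines are medians. The mock and HOXA5 short spots overlap for both genes, with medians of 36.2 and 37.3 for DDIT4 and 57.5 and 55.0 for XBP1.

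HSPA5 encodes BiP, the main ER chaperone and the classic readout of the unfolded protein response. Its probe (NM_005347) read 483 ± 48.3 in mock and 546 ± 54.6 in HOXA5 short, a difference of -0.13 against a single-spot SD of 0.17. HERPUD1, an ER membrane protein that helps to send misfolded proteins for degradation, had the lowest difference of the group. It read 3636 ± 364 and 3976 ± 398 (NM_014685), a difference of -0.18 (1.13-fold lower), which exceeds the single-spot SD of 0.12 but is within the scanner error of 0.20. The 32 spots around it had a median difference of -0.26, and HERPUD1 was 0.08 higher than that median. Of all genes, 39.4% lay at least as far from 0 as HERPUD1.

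From low to high the order of the differences was HERPUD1, HSPA5, CHAC1, XBP1, DDIT3, TRIB3, ATF4, DDIT4, ASNS, PSAT1. No neighbours in it were resolved, since each of the 9 gaps was smaller than the error of the gap from single spots, and the widest, between ASNS and PSAT1, was 0.17 against an error of 0.20. Of all 45 pairs of members, 8 lay farther apart than that single-spot error, and each of these held PSAT1 or HERPUD1. By the same error only HERPUD1 and PSAT1 lay more than 2 errors apart (0.41 against 0.20), and PSAT1 rested on its dim probe. For DDIT4 and XBP1, each a mean of 10 spots, a single-spot error is too wide, so the counts do not settle the pairs that hold them. DDIT4 and XBP1 lay 0.11 apart, with a standard error over copies of 0.03 for each. Around the 10 single-spot probes of the members, 1 of 308 well-measured spots differed 2-fold.

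**Figure D3:**
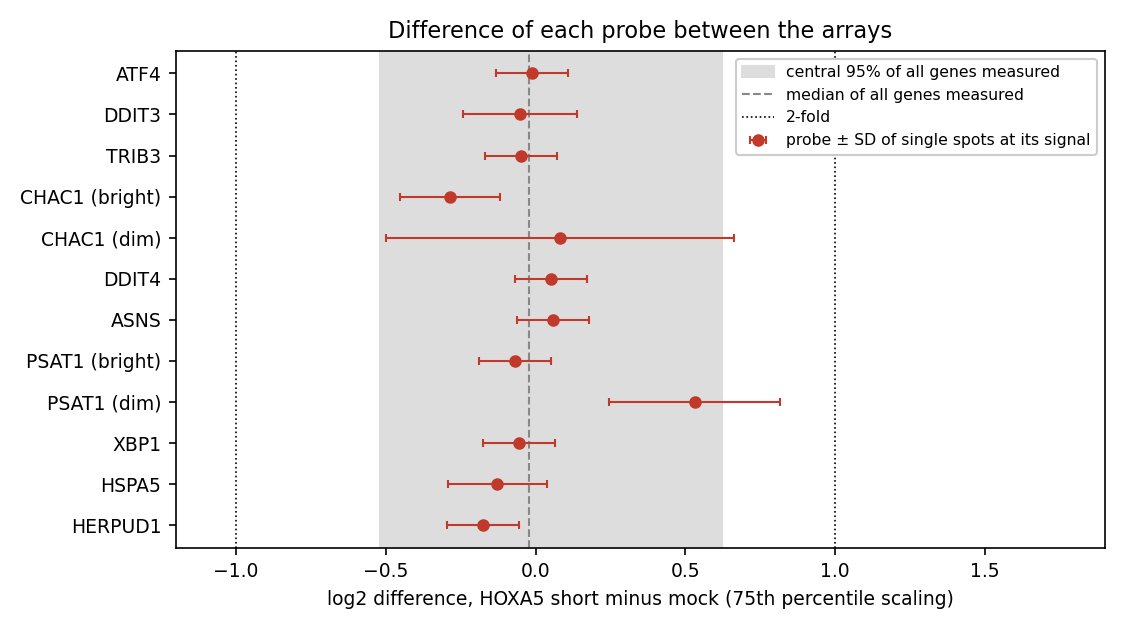
Log2 difference of HOXA5 short from mock for each probe of the 10 genes. Bars are the SD of single spots at that signal, the grey band is the central 95% of all genes (-0.52 to 0.62) and dotted lines mark 2-fold. All 12 probes lie inside the band; the dimmer PSAT1 probe, at 0.53, is nearest to its edge.

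The wider pathways were read from 10 lists by role, with 143 genes, of which 127 were measured on both arrays. Their median was 0.003, with 66 genes higher and 61 lower, and 4 (3.15%) were past 1.5-fold, against 4.38% of all genes. These were SARS1 and DERL3 on the higher side and ATF6 and SELENOS on the lower, and the lower calls were lost with spike-in scaling (ATF6 -0.45, SELENOS -0.39).

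Upstream of ATF4, the eIF2 kinases, phosphatase subunits and exchange factor had 13 of 14 genes measured, 6 higher and 7 lower, with a median of -0.04. They ran from IMPACT, an inhibitor of the kinase GCN2, at -0.29 and the exchange factor subunit EIF2B3 at -0.15 to the phosphatase subunits PPP1R15B at 0.11 and PPP1R15A at 0.16. EIF2AK3, the gene of PERK, was well above background only on the HOXA5 short array, at 9.95 against 2.01, which gives at least 1.04-fold higher. With so low a bound the size of any difference is unknown.

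Among the partners and feedback genes of ATF4, 12 of 16 were measured, 4 higher and 8 lower, with a median of -0.14. KLHL24 (-0.27) and CEBPG (-0.20), a dimerisation partner of ATF4, were lowest, and ATF3 (0.22) and the angiogenic factor VEGFA (0.29) highest. KLHL24 read 20.2 in mock and 20.7 in HOXA5 short, signals at which the single-spot SD was 0.29. ATF3 is a transcription factor induced by many stresses, and its 4 probes read 0.17, 0.46, -0.05 and 0.29. The VEGFA probes read 0.06 and 0.53. In both genes the highest value came from a probe with signals below 50 on each array.

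The amino acid lists lay near 0. Of 11 measured genes of amino acid synthesis and one-carbon metabolism 8 were higher and 3 lower (median 0.04), from MTHFD2 and PSPH at -0.13 each to PYCR1 of proline synthesis at 0.15 and PHGDH at 0.26. PYCR1 rested on its dimmer probe, which read 53.0 and 80.7 (0.30), while the brighter read 10157 and 12488 (-0.0061). PHGDH opens the serine pathway in which PSAT1 acts, and its probe read 540 and 798. Of 8 measured amino acid transporters 6 were higher and 2 lower (median 0.07), from SLC38A2 (-0.14) and the cystine carrier SLC7A11 (-0.12) to SLC6A9 (0.29) and SLC43A1 (0.34). SLC43A1 was dim, at 14.7 in mock and 23.0 in HOXA5 short, with a single-spot SD of 0.29. All 20 listed aminoacyl-tRNA synthetases, which charge tRNAs with amino acids, were measured, 10 higher and 10 lower with a median of 0.001. Their lowest were QARS1 (-0.26) and RARS1 (-0.25).

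SARS1, the seryl-tRNA synthetase, averaged 1.43 over probes that point in opposite directions. The probe on NM_006513 read 1948 and 2112, a difference of -0.19. A probe assigned to it by the non-coding accession NR_034072 went from 9.90 to 101, a difference of 3.04, and 10 of 18 spots around that probe differed 2-fold, with a median of 1.08. Without spots in such uneven areas SARS1 was at -0.19.

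Of the ER stress sensors, their proteases and related factors, 6 of 10 were measured, 3 higher and 3 lower, with a median of -0.05. ATF6 read 382 in mock and 250 in HOXA5 short, a difference of -0.91, in an area where 7 of 18 surrounding spots differed 2-fold. The surrounding spots had a median difference of -0.12, and with that subtracted ATF6 was at -0.80. The part of the area in its value was not tested. MBTPS2, the site-2 protease that cuts ATF6, was at -0.37, CREB3L1 at 0.33 and the site-1 protease MBTPS1 at 0.38 (probes 0.28 and 0.48). ATF6B was well above background on the HOXA5 short array only, at 14.4 against 7.25, and at least 1.51-fold higher by its signals. That bound leaves out the error of the spots, and the single-spot SD at this signal was 0.58. ERN1 and ERN2, the genes of IRE1, were not measured on both arrays.

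The ER machinery downstream showed no common direction. Of 18 measured chaperones and foldases 10 were higher and 8 lower (median 0.002), from SIL1 (-0.31) and DNAJC10 (-0.25, probes -0.45 and -0.04) to calreticulin, CALR, at 0.23 and the disulfide isomerase PDIA3 at 0.37 (probes 0.13 and 0.61). Of 18 measured genes of ER translocation and XBP1 targets 7 were higher and 11 lower (median -0.06), from SEC63 (-0.29) and SSR1 (-0.22, probes -0.48, -0.10 and -0.07) to SEC23B (0.27) and SEC61A1 (0.48). Of 16 measured genes of ER-associated degradation, the pathway HERPUD1 serves, 9 were higher and 7 lower (median 0.02), with EDEM3 at -0.33 and DERL1 at 0.28.

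DERL3 and SELENOS belong to that degradation list. DERL3, a derlin of the ER membrane, read 49.5 in mock and 412 in HOXA5 short, a difference of 2.75, the farthest from 0 in the 10 lists. Of 30 spots around the probe 3 differed 2-fold, and a further probe for DERL3 on the same accession (NM_198440) did not stand well above background on any array. The gene therefore rests on 1 spot per array. SELENOS, a selenoprotein that binds derlins, read 220 and 151, a difference of -0.85, with 2 of 31 spots around it differing 2-fold. DERL1 and EDEM3 of the same list stayed inside 1.5-fold, as did HERPUD1, which is not in that list.

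Of 8 measured genes of terminal stress and death 4 were higher and 4 lower (median -0.002). The death receptor TNFRSF10B, a known CHOP target, was at -0.16, BCL2L11 at -0.15, the inflammatory caspase CASP4 at 0.38 and PMAIP1, the BH3-only protein NOXA, at 0.56. PMAIP1 read 631 and 1148 with none of 25 surrounding spots differing 2-fold. A further BCL2L11 probe, well above background only on the HOXA5 short array, read 8.34 in mock and 19.9 in HOXA5 short. It was 1.93-fold higher by the ratio of these signals, a difference of 0.95 against a single-spot SD of 0.58. The BCL2L11 probes measured on both arrays read -0.16 and -0.13.

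**Figure D4:**
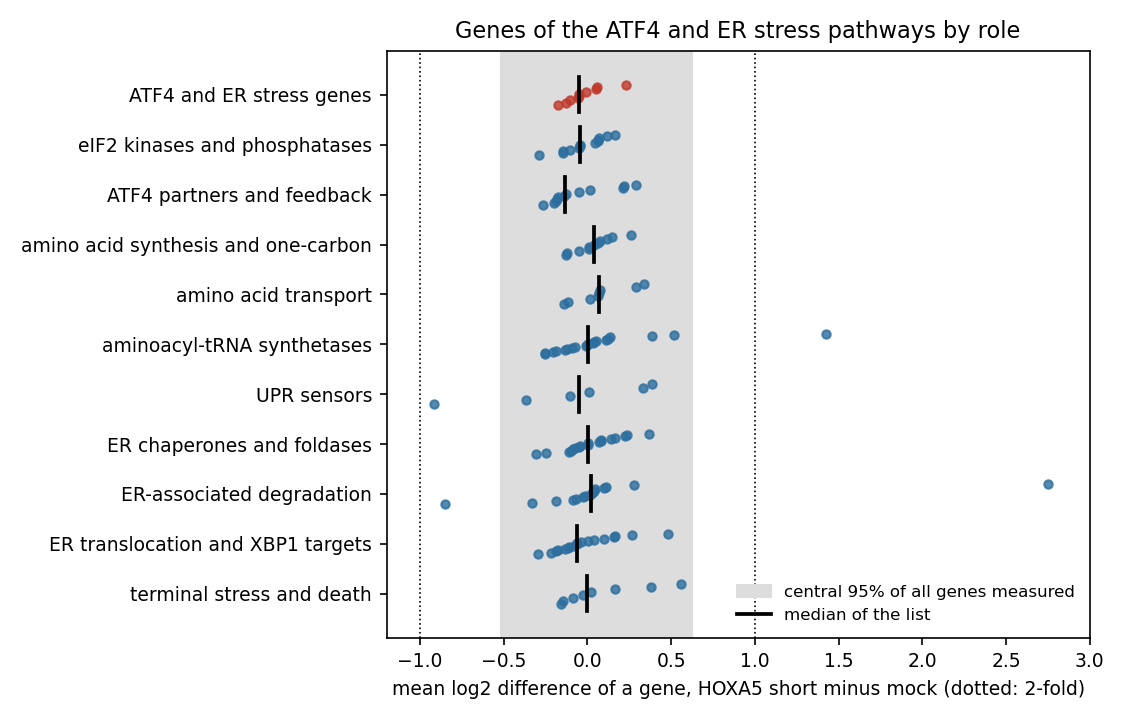
Log2 difference of HOXA5 short from mock for each measured gene in the group of 10 (top row) and in the 10 pathway lists, 1 point per gene, with the median of each list as a black line, the central 95% of all genes in grey and 2-fold as dotted lines. List medians lie between -0.14 and 0.07, and the points outside the band are SARS1 (1.43), DERL3 (2.75), ATF6 (-0.91) and SELENOS (-0.85).

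Under 11 other ways of processing, no member reached 2-fold and 1 member reached 1.5-fold under 1 of them, PSAT1 at 0.70 with spike-in scaling, which moved the median of all genes to 0.44. DDIT4 and ASNS were above 0 under all 11, and the other 8 members changed sign under at least 1. PSAT1 turned to -0.07 where only its bright probe counted. HERPUD1 turned to 0.08 where the median of the surrounding spots was subtracted, and to 0.29 with the spike-ins. ATF4 ran from -0.09 with quantile normalization to 0.46 with the spike-ins.

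**Figure D5:**
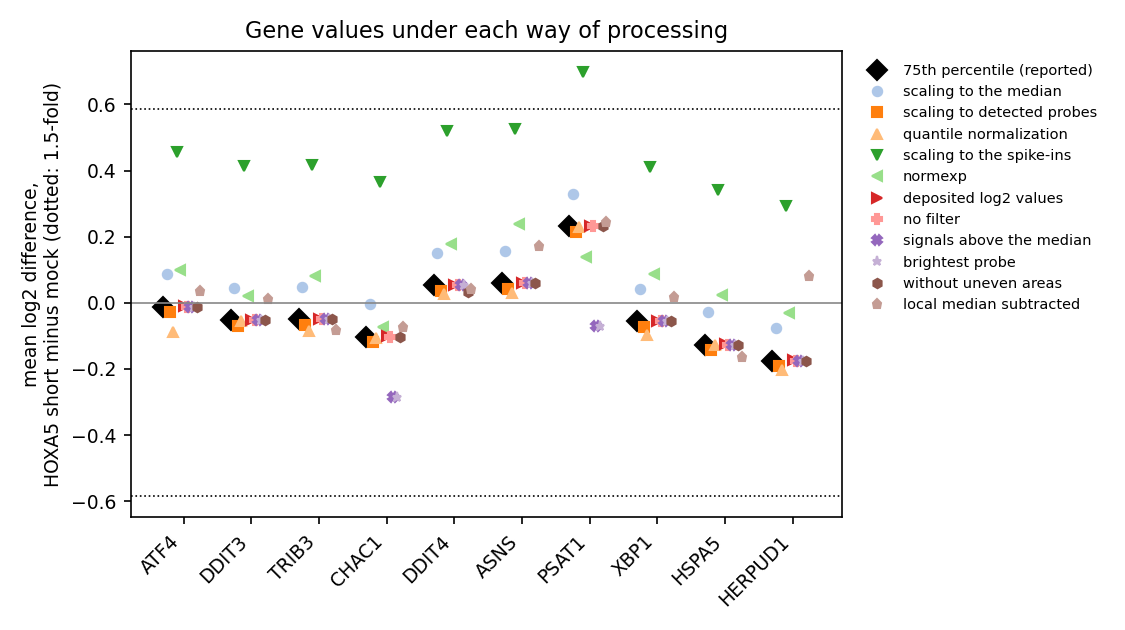
Log2 difference of HOXA5 short from mock for each of the 10 genes under the processing reported (black diamonds) and 11 alternatives, with dotted lines at 1.5-fold. Spike-in scaling lifts all 10 genes above 0, PSAT1 to 0.70; otherwise the points lie between the dotted lines.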

How the data were processed

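Gene expression was compared between mock and HOXA5 short HCT116 cells, grouped by the genotype label, with 1 array each on the same slide. The authors deposited scanner output giving the intensity of each spot, which per the file headers came from Feature Extraction 11.5.1.1 after background subtraction. They also deposited a table of log2 values centred on each probe's mean, whose differences matched those used here to within 0.01 (median shift 0.0016) and which served as an alternative. The column medians of that table were 0.0057 for mock and -0.0057 for HOXA5 short, and its own scaling is not stated.

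Outlier-flagged spots were left out, log2 signals were averaged per probe, and each array's 75th percentile of non-control probes was subtracted (Python 3.11.15, numpy 2.4.6, pandas 2.3.3). A probe passed when over 50% of its spots were well above background on both arrays, and passing probes were averaged per gene. RefSeq accessions named 30004 of 50599 probes. The single-spot SD came from 902 probes with at least 5 spots, 592 of them passing, pooled within ranges of signal. An area was called uneven where over 10% of at least 10 measured spots within 4 rows and columns differed 2-fold, which held for 2.70% of spots. A probe above background on 1 array was given a bound against the higher of its own dim value and the lowest signal above background there. The bound holds no spot error. The procedure was tested on simulated data. limma 3.58.1 served for normexp (offset 50) and matplotlib 3.10.9 for figures. Precision is limited by the number of arrays.

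The 10 members and the pathway lists were chosen with earlier results of these data known, and nothing is supported by that choice. Every probe of the members was reported. Of each pathway list the 2 highest and 2 lowest genes and those past 2-fold were named; other genes were named after their values were seen. A single gene that this rule would name is not reported here.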

Additional observations from a re-analysis of the deposited data

How the results depend on the processing

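The 11 alternatives were centring on the median, on detected probes or on 7 RNA spike-ins, quantile normalization, normexp, the deposited log2 values, no filter, signals above the median, the brightest probe, no uneven areas, and subtraction of the local median. Of 100 member values outside spike-in scaling, 92 moved by less than the single-spot SD. Many of these could hardly move, so the count is no measure of stability. No filter left every member as it was, and leaving out uneven areas changed DDIT4 alone. Signals above the median and the brightest probe changed only CHAC1 and PSAT1. Centring on the median or on detected probes shifted all genes by 0.10 and -0.02, less than the smallest SD of 0.12. Spike-in scaling raised the median of all genes by 0.47 and the share of genes past 1.5-fold to 25.1%. With it the member median became 0.42 and the number of members past 1.5-fold 1 (PSAT1). List medians became 0.33 for ATF4 partners, 0.47 for ER chaperones, 0.40 for ER translocation, 0.49 for ER-associated degradation, 0.42 for the ER stress sensors, 0.51 for amino acid synthesis, 0.53 for transport, 0.47 for the synthetases, 0.42 for the eIF2 list and 0.46 for terminal stress. Relative to all genes the member median lay between -0.05 and 0.05 under every alternative. The deposited values gave 0.17 for the ER stress sensors, since they include probes detected on 1 array. SARS1 turned to -0.19 with signals above the median, with the brightest probe and without uneven areas, each of which leaves out its dim probe. Dim probes limit CHAC1 and PSAT1. ATF6 and SELENOS came inside 1.5-fold with spike-in scaling, and ATF6 has no value without uneven areas. DERL3 fell to 1.94 with normexp, and to 1.35 with no filter, which adds its undetected probe. No paired analysis was possible because each group has 1 array and no result comes from a test.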
